A study of Mus musculus with 30 samples.

Results

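Serum/LIF, the control medium of a long-term culture experiment, was compared with itself across passages. The 6 libraries are 3 of E14tg2a mouse embryonic stem cells (mESCs) after 10 passages (P10) and 3 after 20 passages (P20), taken by the labels alone from the 18 libraries of that experiment and the 30 of the series. E14tg2a is an established male line of 129 background, grown here without feeder cells on gelatin. Serum/LIF is a glucose- and pyruvate-containing medium with fetal bovine serum and leukemia inhibitory factor (LIF), and all 6 libraries carry no other treatment or genetic change. The remaining 12 libraries come from the same line after 10 or 20 passages in EMM, in which galactose replaces glucose and pyruvate, or in 2i/LIF, in which inhibitors of MEK and GSK3 are combined with LIF. RNA-seq of total RNA gave estimated counts per gene, given here as normalized counts, which are counts scaled to a common library size. The comparison asks how far the control culture itself moved over 10 further passages. No label gives a day of collection or of library preparation, so passage and time of handling cannot be told apart. The 3 libraries of a passage are biological replicates of 1 line by the study's methods.

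As background, mESCs kept in serum and LIF are a mixture of interconverting states. Cells near the naive epiblast of the blastocyst carry Esrrb, Tfcp2l1, Klf and Tbx3 factors downstream of LIF, and others shift toward the formative or primed epiblast under FGF and ERK signalling, with Otx2, Pou3f1, Dnmt3b and Fgf5. Serum also feeds growth factors and lysophospholipids to SRF and ERK, which switch on immediate-early genes such as Fos and Egr1 and, with MRTF, genes of the actin cytoskeleton.

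Total counts ran from 13293496 to 16072649 at P10 and from 11656040 to 20305316 at P20. Of 55487 genes, 16054 were tested. All 8 embryonic stem cell markers checked were measured, with Pou5f1 at 19093, 17332 and 17371 normalized counts at P10 and 19316, 17443 and 17038 at P20. Calls needed a log2 fold change (P20 minus P10) beyond 1 in either direction and an adjusted p under 0.01. By that rule 188 genes (1.17% of those tested) were higher at P20 and 108 (0.673%) were lower, 296 (1.84%) in all. By the same rule and in the same model, the step from P10 to P20 changed 8.54% of tested genes in EMM (5.59% higher, 2.95% lower) and 10.1% in 2i/LIF (3.56% higher, 6.59% lower). The change itself differed between EMM and Serum/LIF for 8.4% of genes (5.06% above Serum/LIF, 3.34% below) and between 2i/LIF and Serum/LIF for 9.32% (3.18% above, 6.14% below). By adjusted p alone, which is how list members are counted below, 507 genes were higher (3.16%) and 458 lower (2.85%) in Serum/LIF. Whichever of the 6 libraries was left out, 96 of the 188 rises and 62 of the 108 falls kept an adjusted p under 0.01. Without P10 replicate 1 the rises numbered 125, and without P10 replicate 2 they numbered 107. With library totals in place of TMM factors, 74.2% of the calls were rises, against 63.5% here, and the median of all genes moved from 0.0061 to 0.075. A mean of 50 normalized counts at either passage was reached by 147 of the 188 rises and 98 of the 108 falls. The median change itself leaned on abundance, from 0.19 in the lowest of 5 equal bins of tested genes to -0.064 in the highest.

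**Figure D1:**
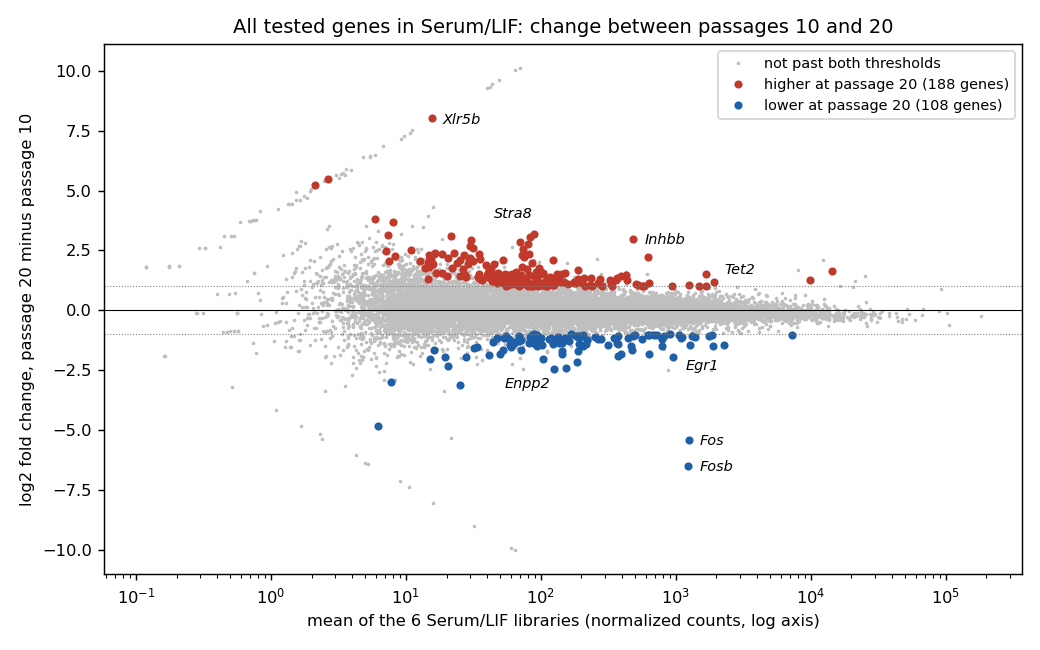
Each point is 1 tested gene, with its mean over the 6 Serum/LIF libraries on the x axis (normalized counts, log axis) and its log2 fold change from P10 to P20 on the y axis. The 188 called rises are red and the 108 called falls blue, dotted lines mark a log2 fold change of 1 in either direction, and Fosb and Fos stand below all other abundant genes.

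The largest falls among abundant genes were in immediate-early genes, which cells transcribe within minutes of a growth factor or stress signal. Fosb, a partner of Jun in the AP-1 factor, had 2300.2, 2753 and 2308 normalized counts at P10 and 26.3, 28.6 and 26.3 at P20 (log2 fold change -6.49 ± 0.24 (SE), adjusted p = 1.2e-11). Fos, another AP-1 subunit, had 2469.9, 2809.7 and 1998 normalized counts at P10 and 58.8, 60.0 and 51.3 at P20 (log2 fold change -5.40 ± 0.26 (SE), adjusted p = 3.47e-10). For both, every P10 library was more than 10 times every P20 library. The 150 bases before the RefSeq start of Fos (GRCm38.p6, chr12:85473740-85473889, plus strand), of Fosb (chr7:19310046-19310195, minus strand) and of Zfp36 (chr7:28379229-28379378, minus strand) are shown because these are classical targets of signal-activated factors. Capitals mark TGACG, the core of the CREB site, TATAAA, and the CArG box bound by SRF, each searched on both strands.
Fos: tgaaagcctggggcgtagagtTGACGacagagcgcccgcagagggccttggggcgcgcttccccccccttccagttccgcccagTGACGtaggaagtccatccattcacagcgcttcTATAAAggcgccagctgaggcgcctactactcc
Fosb: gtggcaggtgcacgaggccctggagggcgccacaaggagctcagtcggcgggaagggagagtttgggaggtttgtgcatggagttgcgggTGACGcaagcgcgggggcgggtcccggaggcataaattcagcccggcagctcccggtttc
Zfp36: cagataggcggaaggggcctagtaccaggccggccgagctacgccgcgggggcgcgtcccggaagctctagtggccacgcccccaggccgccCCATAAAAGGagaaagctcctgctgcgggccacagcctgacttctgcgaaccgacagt
TGACG begins 129 and 66 bases before the start in Fos and 60 before it in Fosb. TATAAA begins 33 bases before the Fos start, and a CArG box 58 before that of Zfp36. Over the same 150 bases of 32851 RefSeq promoters, TGACG or CGTCA occurred in 13.3%, TATAAA or TTTATA in 7.57% and a CArG box in 0.916%. These matches are a description of the letters in the window.

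Other immediate-early genes fell by less. Egr1, a zinc-finger factor induced by ERK, had 1448, 1580.4 and 1514 normalized counts at P10 and 359, 393 and 427 at P20 (log2 fold change -1.95 ± 0.13 (SE), adjusted p = 3e-08). Jun, the partner of Fos, had 1000.1, 1055 and 897 normalized counts at P10 and 269, 259 and 308 at P20 (log2 fold change -1.83 ± 0.20 (SE), adjusted p = 1.39e-05). Atf3, a stress-induced member of the ATF family, had 334, 320.4 and 248 normalized counts at P10 and 54.6, 68.6 and 80.1 at P20 (log2 fold change -2.15 ± 0.28 (SE), adjusted p = 7.97e-05). For each of these 3 genes the lowest P10 library was well above the highest P20 library. Zfp36, which destabilises AU-rich messages, had 689.6, 727 and 626 normalized counts at P10 and 246, 249.99 and 230.2 at P20, and Gadd45g, a stress-induced growth regulator, had 259, 305 and 302 normalized counts at P10 and 87.2, 82.1 and 100.1 at P20. Klf6, Junb, Mafk, Dusp1 (a MAP kinase phosphatase) and Ppp1r15a (which directs eIF2α dephosphorylation) also fell, with log2 fold changes from -1.20 for Mafk to -0.75 for Ppp1r15a. In a list of 45 immediate-early genes drawn up after the fall of Fos had been seen, 42 were tested, 14 fell and 1 rose, with a median of -0.33 against 0.0061 over all genes. The riser was Myc, which encodes a growth-promoting factor (689, 522 and 617 normalized counts at P10 and 1003, 895 and 952 at P20, log2 fold change 0.64 ± 0.12 (SE), adjusted p = 0.0021). Without P10 replicate 2 or P20 replicate 1 the Myc call was lost, at a log2 change of 0.54 to 0.74 over the libraries left out. Maff, with the highest adjusted p of the 14 falls (log2 fold change -0.85 ± 0.20 (SE), adjusted p = 0.00933), lost its call without any 1 of the 6 libraries, and Ccn1, whose values follow with the cytoskeleton, without P20 replicate 2.

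The fall of Fos and Fosb between P10 and P20 was also present in the other media, which share no library with Serum/LIF. In EMM the log2 fold changes were -3.001 for Fos and -3.82 for Fosb (adjusted p = 2.57e-08 and 3.75e-08), and in 2i/LIF they were -6.93 and -6.87 (adjusted p = 3.27e-11 for both). Of the 42 immediate-early genes, 14 fell and 2 rose in EMM, where 11.9% and 13.3% of all tested genes did so, and 17 fell and 6 rose in 2i/LIF, where 15.2% and 13.1% did. The fall in Serum/LIF was larger than in EMM by 2.40 for Fos and 2.67 for Fosb on the log2 scale (adjusted p of the difference = 4e-05 and 0.000332). Atf3 did not share the fall: its log2 change was 0.10 in EMM and -0.03 in 2i/LIF (adjusted p of the difference from Serum/LIF = 0.00296 and 0.000847). It was already lower at P10 in those media. Its mean normalized counts went from 17.6 to 17.3 in EMM, from 82.1 to 78.3 in 2i/LIF and from 301 to 67.8 in Serum/LIF.

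**Figure D2:**
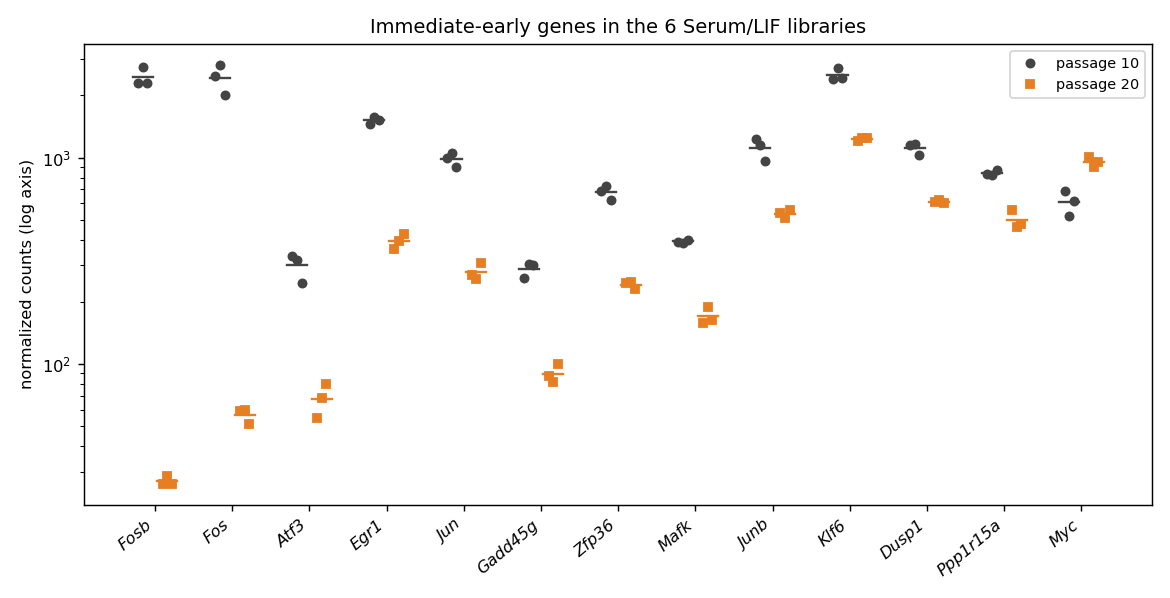
Normalized counts (log axis) of 13 immediate-early genes in each Serum/LIF library, circles for P10 and squares for P20, with bars at the means of 3 libraries. The P10 and P20 points do not overlap for any gene shown, Fosb and Fos are the farthest apart, and Myc alone is higher at P20. Over all tested genes the groups did not overlap for 20.4% in the downward and 20.7% in the upward direction.

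Most naive pluripotency genes were higher at P20. Of 15 listed and tested, 9 rose and 0 fell by edgeR's adjusted p, against a background of 3.16% and 2.85%, and the median was 0.47 against 0.0061 over all genes. By DESeq2 10 rose and 0 fell. The only member with a negative value, and the only one lower at an unadjusted p under 0.05, was Dppa3 (-0.77 ± 0.34 SE, adjusted p = 0.14). Gbx2, a homeobox factor downstream of LIF and STAT3, had 244, 212 and 171 normalized counts at P10 and 542, 479 and 501 at P20 (log2 fold change 1.27 ± 0.14 (SE), adjusted p = 1.72e-05). Tbx3, a T-box factor of self-renewal, had 1009, 959 and 966 normalized counts at P10 and 1752, 1880.0 and 2266 at P20 (log2 fold change 1.01 ± 0.08 (SE), adjusted p = 6.78e-07). Both passed the fold threshold, and their P20 values were all above their P10 values, a pattern seen for 20.7% of all tested genes. Klf5 had 2878, 2663 and 2454 normalized counts at P10 and 5315, 5058 and 4623 at P20 (log2 fold change 0.91 ± 0.14 (SE), adjusted p = 0.00032), and Fgf4, the ligand of the FGF pathway that mESCs themselves secrete, had 1927, 2046 and 2219 normalized counts at P10 and 3317, 3136 and 2824 at P20 (log2 fold change 0.58 ± 0.08 (SE), adjusted p = 6.87e-05). Tfcp2l1 rose by 0.63, Pecam1 by 0.71, Prdm14 by 0.80 and Esrrb by 0.43 on the log2 scale. Each of these 8 rises was kept whichever library was left out. The ninth, Nr0b1 (0.44), kept its call without P20 replicate 3 and lost it without any 1 of the other 5 libraries, with a log2 change of 0.35 to 0.55 over the 6 fits.

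The core factors moved apart from one another. Nanog had 5062, 4659 and 4133 normalized counts at P10 and 8033, 7202 and 7534 at P20 (log2 fold change 0.72 ± 0.11 (SE), adjusted p = 0.000326), and Dppa2, a chromatin factor that opens early embryonic genes, had 847, 687 and 882 normalized counts at P10 and 1677, 1558 and 1806 at P20 (log2 fold change 1.06 ± 0.15 (SE), adjusted p = 0.000167). Lin28a, an RNA-binding protein that blocks let-7 maturation, fell, with 8834, 8556 and 8193 normalized counts at P10 and 5817, 5456 and 5566 at P20 (log2 fold change -0.60 ± 0.10 (SE), adjusted p = 0.000652). Pou5f1, whose values are given above, had a log2 change of 0.00 ± 0.09 (SE). Sox2 had 4972, 4798 and 4814 normalized counts at P10 and 6169, 5852 and 5423 at P20 and did not pass (log2 fold change 0.26 ± 0.07 (SE), adjusted p = 0.0171). Of the 10 core genes, then, 2 rose, 1 fell and 7 did not pass, with a median of 0.0029.

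Genes of the formative and primed epiblast leaned the other way, though 9 of the 15 did not pass. Of 15 listed and tested, 0 rose and 6 fell by edgeR, with a median of -0.69; 2 were higher at an unadjusted p under 0.05 and 1 by DESeq2. Fgf5, the ligand that marks the formative epiblast, had 167, 188 and 147 normalized counts at P10 and 45.2, 46.4 and 30.03 at P20 (log2 fold change -2.02 ± 0.28 (SE), adjusted p = 0.000217). Pim2, a serine/threonine kinase, had 2747, 2996 and 2510.4 normalized counts at P10 and 1113, 968 and 883 at P20 (log2 fold change -1.48 ± 0.12 (SE), adjusted p = 6.78e-07). Pou3f1, a POU factor of the primed state, had 781, 830.4 and 905 normalized counts at P10 and 435, 416 and 398 at P20 (log2 fold change -1.01 ± 0.11 (SE), adjusted p = 1.04e-05). Dnmt3b, the de novo DNA methyltransferase of the epiblast, had 9838, 9010.3 and 10620.0 normalized counts at P10 and 6235, 6161 and 5639 at P20 (log2 fold change -0.71 ± 0.12 (SE), adjusted p = 0.00102). In none of these 4 did a P20 library reach the lowest P10 library, as was so for 20.4% of all tested genes. Sfrp2 and Otx2 made up the 6, at -0.69 and -1.02. The Sfrp2 call was lost without P10 replicate 2 or P20 replicate 2 or 3, and the Otx2 call without P10 replicate 3 or any 1 of the P20 libraries, with log2 changes of -0.72 to -0.65 and -1.19 to -0.70 over those fits. In bulk RNA, fewer cells in a state and less RNA per cell cannot be told apart.

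In EMM the passage change leaned the opposite way. There 8 of the 15 naive genes fell and 0 rose, with a median of -0.54, and 10 of the 15 formative and primed genes rose and 1 fell, with a median of 1.38, against 11.9% of all tested genes that fell and 13.3% that rose. Tested as a difference, the passage change in EMM was below that in Serum/LIF for 12 of the naive genes and above it for 0, and above it for 11 of the formative and primed genes and below it for 1. Over all tested genes the same test put EMM below Serum/LIF for 6.43% and above it for 8.28%. These differences rest on the same Serum/LIF libraries as the values above. Levels at P10 also differed. Tbx3 went from a mean of 4374 to 1491 normalized counts in EMM and from 978 to 1966 in Serum/LIF. Gbx2 went from 632 to 236 and from 209 to 507, and Klf5 from 4161 to 3420.5 and from 2665 to 4999. Fgf4 went from 3902 to 3748 and from 2064 to 3092. Pim2 went from 407 to 2075 and from 2751 to 988, and Pou3f1 from 88.1 to 416 and from 839 to 416. Fgf5 went from 35.5 to 121 and from 167 to 40.5, and Dnmt3b from 3625 to 6114 and from 9823 to 6011. In 2i/LIF, 2 of the 15 naive genes rose and 2 fell, near the 13.1% and 15.2% of all tested genes, while 1 of the 15 formative or primed genes rose and 10 fell. By the test of the difference, the passage change in 2i/LIF was below that in Serum/LIF for 8 of the naive genes and above it for 0, and below it for 5 of the formative and primed genes and above it for 2, against 10.9% of all tested genes below and 9.16% above.

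**Figure D3:**
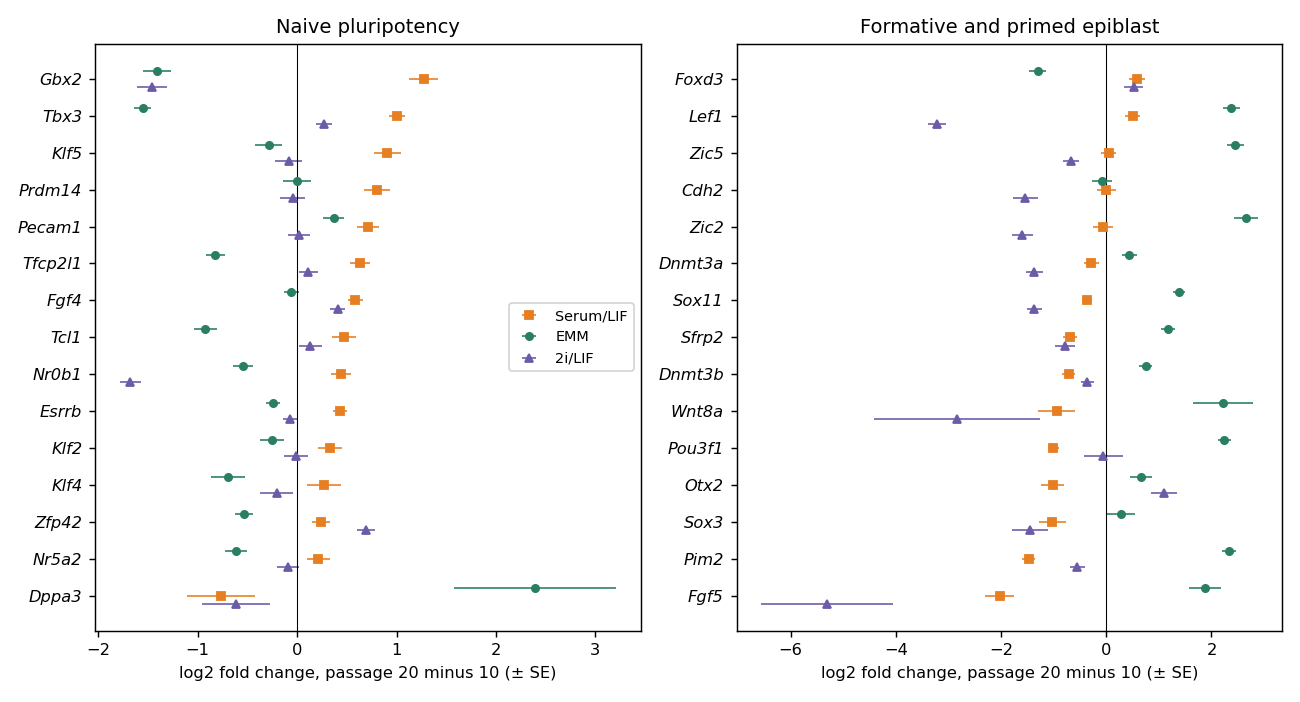
Log2 fold change from P10 to P20 (± SE) of the 15 naive genes (left) and the 15 formative and primed genes (right), with squares for Serum/LIF, circles for EMM and triangles for 2i/LIF, ordered by the Serum/LIF value. In Serum/LIF 14 of 15 naive genes lie above 0 and 12 of 15 formative and primed genes below it, while in EMM 12 of the naive genes lie below 0 and 13 of the formative and primed genes above it.

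Several genes of cell junctions fell in Serum/LIF. In a list of 16 cadherin and epithelial-mesenchymal genes, 5 fell, 2 rose and 9 did not pass, with a median of -0.16. Cldn7, a tight junction claudin, had 700.2, 720.3 and 727 normalized counts at P10 and 229, 232 and 215 at P20 (log2 fold change -1.66 ± 0.13 (SE), adjusted p = 2.39e-07). Cldn6 had 1948, 1907 and 1827 normalized counts at P10 and 946, 858 and 841 at P20 (log2 fold change -1.10 ± 0.15 (SE), adjusted p = 0.000125) and Cldn4 had 2521, 2552 and 2461 normalized counts at P10 and 1635, 1497 and 1228 at P20 (log2 fold change -0.79 ± 0.13 (SE), adjusted p = 0.000505). The values of the 3 claudins at P20 were all under those at P10, a pattern seen for 20.4% of all tested genes. Cdh1, which encodes E-cadherin, had 8249, 8948 and 9379.8 normalized counts at P10 and 6029, 6331 and 6279 at P20 (log2 fold change -0.51 ± 0.07 (SE), adjusted p = 5.89e-05), and Ocln, another tight junction protein, had a log2 change of -1.06. In the family as a whole, a list made after these values had been seen, 9 claudins were tested, all with negative values, and 3 of them fell while 6 did not pass. Zeb1, a repressor of E-cadherin, rose, with 72.3, 76.4 and 72.9 normalized counts at P10 and 173, 174 and 189 at P20 (log2 fold change 1.27 ± 0.11 (SE), adjusted p = 1.48e-06), and Vim, the mesenchymal filament protein, had 3718, 3118 and 2441 normalized counts at P10 and 4609, 4596 and 6173 at P20 (log2 fold change 0.73 ± 0.16 (SE), adjusted p = 0.0051). The Vim call was lost without P10 replicate 2 or 3 or P20 replicate 3 (0.57 to 0.88 over the libraries left out).

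Genes of the serum response and actin cytoskeleton were mostly lower. Of 28 listed, 27 were tested, 14 fell and 1, Vim, rose, against 2.85% and 3.16% of all tested genes, with a median of -0.50. Fosb, Fos, Egr1 and Junb, given above, are among the 14. Tpm1, a tropomyosin, had 7795, 7136 and 7248 normalized counts at P10 and 3686, 3644 and 4818 at P20 (log2 fold change -0.87 ± 0.10 (SE), adjusted p = 1.96e-05). Cnn2, a calponin, had 2427, 2434 and 2324 normalized counts at P10 and 1299, 1330.0 and 1554 at P20 (log2 fold change -0.78 ± 0.09 (SE), adjusted p = 3.51e-05), and Flna, the actin cross-linker filamin A, had 12532, 13265 and 13916 normalized counts at P10 and 8068, 9435 and 9816 at P20 (log2 fold change -0.54 ± 0.08 (SE), adjusted p = 0.000244). The rest of the falls were in Tagln (-1.08), Myl9 (-1.24), Ccn1 (-1.02), Cnn1 (-1.18), Tpm2 (-0.70), Vcl (-0.42) and S100a6 (-1.04). Of these 7, each lost its call without at least 1 library: Tagln and Ccn1 without P20 replicate 2, Cnn1 without P20 replicate 1 or 2, Myl9 without P10 replicate 2 or P20 replicate 2, Vcl without any but P20 replicate 3, and Tpm2 and S100a6 without any 1. Their log2 changes over those fits ran, for example, over -1.31 to -0.96 for Tagln and -1.16 to -0.91 for S100a6. In EMM 10 of the 27 rose and 8 fell, where 13.3% and 11.9% of all tested genes did so. By the test of the difference, 14 had a passage change in EMM above that of Serum/LIF and 2 one below it, against 8.28% and 6.43% of all tested genes.

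The simple-epithelium keratins Krt8, Krt18 and Krt19 also fell. In a list of 11 epithelial keratins, made after these values had been seen, 9 were tested. Of these, 3 fell, 0 rose and 6 did not pass, and 3 had positive values. Krt8 had 6091, 5134 and 4942 normalized counts at P10 and 2592, 2698 and 3386 at P20 (log2 fold change -0.90 ± 0.16 (SE), adjusted p = 0.00135) and Krt18 had 3200.0, 2788 and 3285 normalized counts at P10 and 1463, 1514 and 2251 at P20 (log2 fold change -0.83 ± 0.17 (SE), adjusted p = 0.00298). The values did not overlap between passages, as was so in the downward direction for 20.4% of all tested genes. P20 replicate 3 was nearest to P10 in both keratins. Both calls were lost without P10 replicate 1 or P20 replicate 1 or 2, and Krt18 also without P10 replicate 3 (-1.03 to -0.80 and -1.05 to -0.72 over the libraries left out). Krt19 (-0.69) lost its call without any but P10 replicate 3.

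**Figure D4:**
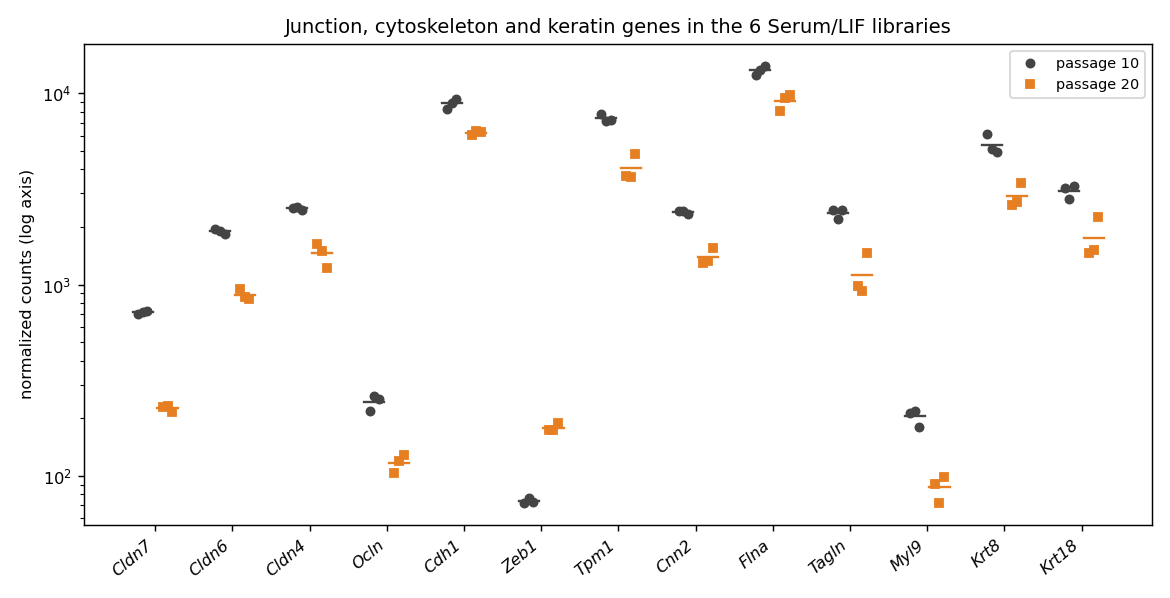
Normalized counts (log axis) of junction, cytoskeleton and keratin genes in each Serum/LIF library, circles for P10 and squares for P20, with bars at the means of 3 libraries. All genes shown are lower at P20 except Zeb1, which is higher. P20 replicate 3, the right-hand square, lies above the other P20 libraries for Tagln, Krt8, Krt18, Tpm1, Cnn2, Flna and Zeb1. It lies below them for Cldn7, Cldn6 and Cldn4.

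Outputs of ERK were split. Of 15 listed genes, 4 fell and 2 rose. Spry4, a feedback inhibitor of receptor tyrosine kinase signalling, had 1144, 1053 and 1146 normalized counts at P10 and 2188, 2279 and 2219.9 at P20 (log2 fold change 1.00 ± 0.11 (SE), adjusted p = 1.09e-05), and Etv4, an ETS factor, had 899.8, 723 and 680.2 normalized counts at P10 and 1376, 1251 and 1273 at P20 (log2 fold change 0.76 ± 0.13 (SE), adjusted p = 0.000858). Fos, Egr1, Dusp4 (-0.66) and Spry1 (-0.54) fell, the last of these only with all 6 libraries. Dusp4 lost its call without P10 replicate 1 or 2 or P20 replicate 1 or 2. LIF and STAT3 genes were split as well, with 4 rises and 3 falls among 15 and a median of 0.21. The rises were Gbx2, Tfcp2l1, Bcl3 (0.64) and Lifr (0.44), the signalling receptor of LIF, and the falls Junb, Pim1 (-0.45) and Ocln. The Bcl3 call was lost without P10 replicate 2 or 3, and that of Lifr without P10 replicate 1 or 3 or P20 replicate 2 or 3.

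Among the single largest rises, Inhbb, which encodes the β subunit of activin B, had 123, 90.3 and 111 normalized counts at P10 and 874, 859 and 846 at P20 (log2 fold change 2.99 ± 0.15 (SE), adjusted p = 7.66e-10), with the 3 P20 libraries close together. Stra8, a retinoic acid-induced gene of meiotic entry, had 14.5, 11.9 and 26.6 normalized counts at P10 and 102, 97.1 and 279 at P20 (log2 fold change 3.17 ± 0.47 (SE), adjusted p = 0.000244), and P20 replicate 3 was well above the other P20 libraries. Mir124a-1hg, the host transcript of a miR-124 hairpin, had 21.2, 10.9 and 21.98 normalized counts at P10 and 128, 177 and 141 at P20 (log2 fold change 3.05 ± 0.36 (SE), adjusted p = 2.37e-05). Nkx6-3, a homeobox gene, had 36.6, 33.7 and 6.94 normalized counts at P10 and 165, 127 and 80.1 at P20, and Halr1, a non-coding RNA at the Hoxa cluster, had 25.1, 16.9 and 31.2 normalized counts at P10 and 118, 106 and 140.2 at P20. Slc6a16 (2.93), Gm12463 (2.71), Nxf3 (2.13), Rbfaos (2.86) and Cd37 (2.77) passed in all 6 fits with a library left out, but Rbfaos overlaps Rbfa and Cd37 overlaps Tead2 on the opposite strand. Mir100hg (2.60), Gm49089 (2.55), Trim52 (2.35), Glcci1 (2.33) and mt-Nd4l (2.25) completed the 15 largest rises. Each of these 5 lost its call without at least 4 of the 6 libraries taken singly.

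Beside the genes already given, the 15 largest falls included Enpp2, Sema6a, St6gal2, Fndc3c1, Thsd7a and Galnt3. Enpp2, the enzyme that makes lysophosphatidic acid, had 246, 261 and 267 normalized counts at P10 and 54.6, 55.0 and 33.8 at P20 (log2 fold change -2.41 ± 0.24 (SE), adjusted p = 7.19e-06). Sema6a, a transmembrane semaphorin, had 605, 602 and 576 normalized counts at P10 and 141, 177 and 154 at P20 (log2 fold change -1.91 ± 0.14 (SE), adjusted p = 1.31e-07). No P20 library came near a P10 library in either gene. Galnt3 had a log2 change of -1.71, Fndc3c1 of -1.83, St6gal2 of -1.84 and Thsd7a of -1.82, the last of these losing its call without P10 replicate 2 or any 1 of the P20 libraries (-1.97 to -1.56 over the libraries left out). Nes, the neural progenitor filament nestin, also fell (1758, 2043 and 1735 normalized counts at P10 and 631, 654 and 766 at P20, log2 fold change -1.43 ± 0.18 (SE), adjusted p = 6.11e-05), whereas Sox1, a neural SOX factor, rose from low values (17.4, 5.95 and 4.63 normalized counts at P10 and 46.2, 38.6 and 38.8 at P20, log2 fold change 2.09 ± 0.33 (SE), adjusted p = 0.000487), and Ncam1 rose by 1.03 on the log2 scale.

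Set against the other media, the falls in Serum/LIF were often rises in EMM. Of the 108 genes called lower, 63 (58.3%) were higher at P20 than at P10 in EMM and 10 (9.26%) were lower, against 13.3% and 11.9% of all tested genes, with a median EMM change of 1.20. In 2i/LIF 10 of the 108 (9.26%) were higher and 35 (32.4%) lower, against 13.1% and 15.2%. The 188 genes called higher had no such lean in EMM, where 39 (20.7%) were higher and 35 (18.6%) lower, and in 2i/LIF 49 (26.1%) were higher and 19 (10.1%) lower. The libraries of the 3 media are separate, and all shared 1 estimate of the spread. Sema6a had log2 changes of 4.001 in EMM and 1.84 in 2i/LIF. Enpp2 had 2.81 in EMM (adjusted p = 5.9e-07) and Kif1a, a kinesin, 3.45 against -1.47 in Serum/LIF. Mean normalized counts of Sema6a went from 9.62 to 153 in EMM and from 594 to 157 in Serum/LIF. Those of Enpp2 went from 24.3 to 174 in EMM and from 258 to 47.8 in Serum/LIF.

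The genes of cholesterol synthesis, which SREBP2 controls together, leaned lower, though 17 of the 24 did not pass. All 24 listed were tested, 7 fell and 0 rose by edgeR, and none was higher at an unadjusted p under 0.05 or by DESeq2. In all, 20 had negative values and the median was -0.34. Hmgcs1, at the entry of the pathway, had 5728, 6426 and 6011 normalized counts at P10 and 3934, 4049.9 and 3738 at P20 (log2 fold change -0.63 ± 0.07 (SE), adjusted p = 2.37e-05). Cyp51, which demethylates lanosterol, had 1413, 1505 and 1403 normalized counts at P10 and 939, 955 and 967 at P20 (log2 fold change -0.59 ± 0.11 (SE), adjusted p = 0.00111), and these calls were kept whichever library was left out. Falls that rested on single libraries included those of Stard4 (-0.47), Insig1 (-0.46), Idi1 (-0.37) and Sqle (-0.37). The Idi1 call was lost without P20 replicate 2, that of Sqle without P10 replicate 2 or P20 replicate 3, and those of Stard4 and Insig1 without any but P10 replicate 3. In 2i/LIF 13 of the 24 rose and 0 fell, against 13.1% and 15.2% of all tested genes, and the passage change there was above that of Serum/LIF for 19, against 9.16% of all tested genes, and below it for 0, against 10.9%.

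In the stress lists few members passed. Of 20 integrated stress response genes tested, 1 rose and 2 fell. Ddit3, the pro-apoptotic factor CHOP, had 75.2, 105 and 87.9 normalized counts at P10 and 173, 179 and 265 at P20 (log2 fold change 1.19 ± 0.19 (SE), adjusted p = 0.000391), while Atf3 fell as above, and Psat1 (-0.28) passed only with all 6 libraries. Among 15 endoplasmic reticulum chaperone genes, Xbp1, the unfolded-protein factor, rose (692, 705 and 696 normalized counts at P10 and 1122, 1046 and 1266 at P20, log2 fold change 0.71 ± 0.08 (SE), adjusted p = 1.09e-05) and Hspa5, the chaperone BiP, fell (log2 change -0.45), a call lost without P10 replicate 1 or 2 or P20 replicate 1 or 2. Of 25 p53 targets, 1, Perp (-0.65), fell and 0 rose. Of 24 cyclins and cell cycle inhibitors, Ccnd3 (log2 fold change 0.59 ± 0.08 (SE), adjusted p = 0.000118), Cdkn1c (0.61) and Myc rose and Mycl (-0.61) fell. Glycolysis showed 2 falls among 26, Ldhb (4423, 4663 and 4119.6 normalized counts at P10 and 2704, 2619.9 and 1951 at P20, log2 fold change -0.86 ± 0.12 (SE), adjusted p = 0.000144) and Pfkm (-0.55, lost without P10 replicate 2 or 3 or P20 replicate 2 or 3). Of 20 hypoxia targets 2 rose, Epas1 (log2 fold change 0.86 ± 0.11 (SE), adjusted p = 6.71e-05) and Vegfa (0.64, lost without P10 replicate 1 or P20 replicate 2). Perp kept its call only without P10 replicate 3.

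Of 10 genes of the DNA methylation machinery tested, 2 rose and 1 fell. Tet2, an enzyme that oxidises 5-methylcytosine, had 1039, 1132 and 1301 normalized counts at P10 and 2130.2, 2818 and 3017 at P20 (log2 fold change 1.20 ± 0.17 (SE), adjusted p = 0.000212), and Prdm14 and Dnmt3b are given above. Of 26 germline genes held silent by DNA methylation, 4 rose and 1 fell, with a median of 0.47. Xlr3a had 77.2, 92.3 and 52.1 normalized counts at P10 and 183, 211 and 249.02 at P20 (log2 fold change 1.52 ± 0.20 (SE), adjusted p = 0.000101), and Piwil2, a PIWI protein of the piRNA pathway, had 190.0, 203 and 186 normalized counts at P10 and 320.4, 329 and 308 at P20 (log2 fold change 0.72 ± 0.13 (SE), adjusted p = 0.00127). Rhox1 (2.10) and Hormad1 (1.10) rose and Tdrd1 (-1.32) fell, each losing its call without at least 4 of the 6 libraries taken singly. Within the Xlr family, a list made after its values were seen, 10 of 16 members were tested, all 10 had positive values and 5 rose. Xlr5b had 0 counts in every P10 library and 33.6, 42.9 and 17.5 normalized counts at P20, which is at least 10.1-fold higher when P10 is set at a floor of 3 counts per library. Xlr5a had 1.93, 10.9 and 0 normalized counts at P10 and 54.6, 37.9 and 23.8 at P20, and its call was lost without P10 replicate 1 or 3 or P20 replicate 1 or 2 (2.59 to 5.06 over the libraries left out). The 150 bases before the RefSeq starts of Xlr5a (GRCm38.p6, chrX:73117703-73117852, minus strand) and Xlr5b (chrX:73148691-73148840, plus strand) are shown to mark how alike the copies are, with the longest run of letters found in both stretches in capitals.
Xlr5a: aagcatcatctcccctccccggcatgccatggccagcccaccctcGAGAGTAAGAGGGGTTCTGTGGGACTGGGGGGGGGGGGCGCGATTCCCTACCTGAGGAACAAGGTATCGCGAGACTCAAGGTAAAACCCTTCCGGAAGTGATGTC
Xlr5b: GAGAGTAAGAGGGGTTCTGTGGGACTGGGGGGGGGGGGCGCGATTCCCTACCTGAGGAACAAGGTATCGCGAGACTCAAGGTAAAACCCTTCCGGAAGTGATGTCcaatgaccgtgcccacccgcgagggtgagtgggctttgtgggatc
The shared run is 105 bases long. Reads from such near-identical copies may be split between them by the counting, and the annotated Xlr5a gene also spans Xlr5b, so the value of a single Xlr gene is uncertain. In 3 further families, listed after their values were seen, 2 of 12 tested Rhox genes, 2 of 3 Pramel genes and 1 of 3 Fthl17 genes rose and none fell, also at an unadjusted p under 0.05.

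Imprinted genes showed 5 falls and 2 rises among 44 tested, with a median of 0.046. Snrpn, expressed from the paternal allele, had 3841, 3998 and 3627 normalized counts at P10 and 2499, 2175 and 2314 at P20 (log2 fold change -0.72 ± 0.09 (SE), adjusted p = 4.57e-05), and Cdkn1c, from the maternal allele, had 629, 595 and 558 normalized counts at P10 and 958, 837 and 929.8 at P20 (log2 fold change 0.61 ± 0.11 (SE), adjusted p = 0.00111). The non-coding RNAs of the maternal Dlk1-Dio3 cluster fell, with log2 changes of -0.64 for Rian, -0.43 for Meg3 and -0.41 for Mirg. Rian had 5546, 6504 and 6234 normalized counts at P10 and 3824, 4039.9 and 3880.4 at P20 and Meg3 had 3119, 3718 and 3679 normalized counts at P10 and 2664, 2608 and 2511 at P20. The P20 libraries were below all P10 libraries for the 3 RNAs, a pattern seen for 20.4% of all tested genes and 12 of the 44 imprinted genes. The call of Rian was lost without P10 replicate 2, those of Meg3 and Mirg without at least 5 of the 6 libraries taken singly, and that of Gnas (-0.48) without P10 replicate 2 or P20 replicate 2.

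Genes of the 2-cell-like state, a rare state of mESCs marked by the Zscan4 cluster, were higher at P20 in value, but 0 of the 16 tested rose or fell by edgeR. At an unadjusted p under 0.05, 10 were higher and 0 lower, and by DESeq2 1 was higher. All 16 had positive log2 changes, with a median of 1.41. Zscan4f had 111, 121 and 198 normalized counts at P10 and 304, 284 and 649 at P20 (log2 fold change 1.52 ± 0.46 (SE), adjusted p = 0.0321), and Zscan4c had 79.1, 86.3 and 146 normalized counts at P10 and 174, 208 and 383 at P20 (log2 fold change 1.297 ± 0.54 (SE), adjusted p = 0.11). The library P20 replicate 3 was the highest of its group for 15 of the 16 genes and P10 replicate 3 for 12 of 16, so the spread within a passage was wide, and without P20 replicate 3 the median was 1.06. The copies of Zscan4 and Usp17l are near-identical, so their reads may be split. In 2i/LIF 13 of the 16 fell, against 15.2% of all tested genes.

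The share of counts from the mitochondrial genome was 0.986 to 1.23% in the P10 libraries and 2.16 to 2.24% in the P20 libraries. Its 13 protein genes all had positive log2 changes, with a median of 1.25, and 2 passed, mt-Nd5 (5053, 5617 and 6746 normalized counts at P10 and 13543, 14437 and 13822 at P20, log2 fold change 1.26 ± 0.30 (SE), adjusted p = 0.00966) and mt-Nd4l, which overlaps mt-Nd4. Neither call was kept when any 1 library was left out. The most abundant, mt-Co1, had 57086, 63849 and 71864 normalized counts at P10 and 123008, 120194 and 119817 at P20 (log2 fold change 0.91 ± 0.31 (SE), adjusted p = 0.0541). P10 and P20 did not overlap for 11 of the 13 genes, as was so in the upward direction for 20.7% of all tested genes. Of 34 nuclear genes of the respiratory chain 0 rose and 0 fell by edgeR (median -0.16), with 1 higher and 7 lower at an unadjusted p under 0.05 and 1 in each direction by DESeq2. Its most abundant members, Atp5b and Atp5a1, had log2 changes of -0.27 and -0.25. Of 39 cytosolic ribosomal protein genes 0 rose and 0 fell by edgeR (median -0.21), with 2 higher and 17 lower at an unadjusted p under 0.05, and 4 lower by DESeq2. Rps2 had a log2 change of -0.46 and Rpl4 of -0.28. The median of the mitochondrial genes was 0.84 in EMM and -0.25 in 2i/LIF.

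Along the chromosomes the change was even. The medians of chromosomes 1 to 19 and X lay between -0.060 (chromosome 8) and 0.057 (chromosome 11). Chromosome Y stood at 0.25 over 16 genes, within the spread of its library medians (SD of the difference between passages 0.56). On it, Ddx3y had 1344, 1374 and 1006 normalized counts at P10 and 1216, 1341 and 1313 at P20. Eif2s3y had 1220.0, 1236 and 1227 normalized counts at P10 and 1111, 1080.0 and 959.8 at P20, and Gm47283 had a log2 change of -0.01. Cut into 312 runs of 50 neighbouring tested genes, the genome gave run medians from -0.17 to 0.71. Only 4 runs passed a line of 0.4 drawn after the values were seen, and the next highest run, at 0.399, was just under it. They lie at chr13:64359337-67278466 (0.71), chr2:175789357-180162680 (0.71), chr4:141368220-145644399 (0.49) and chr4:145670685-148130698 (0.48), in GENCODE M21 coordinates. Zinc-finger symbols make up 35 of their 200 genes, 19 of them in the last run named; many of this family are KRAB proteins that bind transposable elements and recruit Trim28. Of the 200 genes of the 4 runs, 165 had positive values, 21 rose and 2 fell (Lsm14b, -0.35, and Ctsl, -0.45). Among all 16054 tested genes 8166 had positive values. The runs were picked by their median, so a high share of positive values follows from that choice.

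Genes with a zinc-finger symbol (Zfp, Znf or Rex2) shared the lean outside the runs too. In the runs, 32 of 35 had positive values, 8 rose and 0 fell, with a median of 0.53, which the choice of the runs favours. Elsewhere 291 of 357 had positive values, 42 rose and 2 fell (Zfp36 and Zfp608, -1.38), with a median of 0.23, against 0.0032 for the 15854 tested genes outside the runs. Zfp640 on chromosome 13 had 152, 183 and 201 normalized counts at P10 and 277, 367 and 389 at P20 (log2 fold change 0.95 ± 0.14 (SE), adjusted p = 0.000281), and Zfp981 on chromosome 4 had 718, 735 and 774 normalized counts at P10 and 1159, 1184 and 1413 at P20 (log2 fold change 0.75 ± 0.15 (SE), adjusted p = 0.00248). Gm14412, on chromosome 2, had 54.0, 72.4 and 109.9 normalized counts at P10 and 134, 191 and 233 at P20 (log2 fold change 1.25 ± 0.24 (SE), adjusted p = 0.00196). The calls of Zfp981 and Gm14412 were lost without P10 replicate 1 or 2 or P20 replicate 3, and that of Gm14412 also without P20 replicate 2. These genes were named after their values had been seen, and related copies share sequence, so single values are uncertain. In EMM the zinc-finger genes outside the runs had a median of 0.29, and 77 of the 357 (21.6%) rose, against 13.3% of all tested genes. In 2i/LIF their median was -0.14, and 52 (14.6%) fell, which is near the 15.2% of all tested genes. By annotation class, the 349 lincRNAs tested had a median of 0.48 and the 195 antisense RNAs one of 0.46, against -0.0018 for 14195 protein-coding genes.

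**Figure D5:**
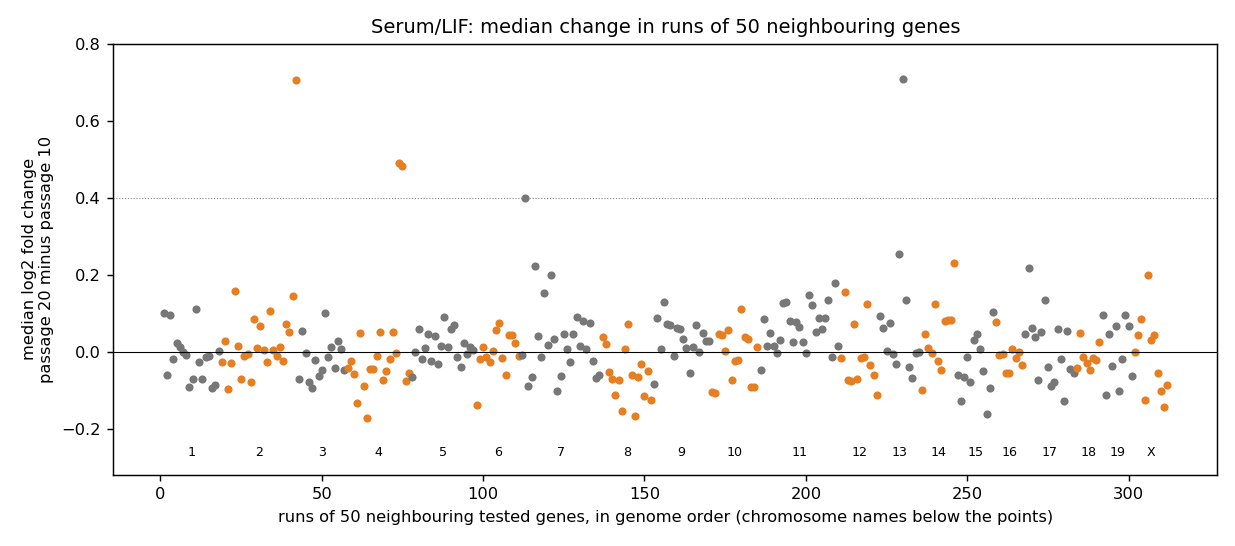
Median log2 fold change from P10 to P20 in Serum/LIF for 312 runs of 50 neighbouring tested genes in genome order, with grey and orange alternating by chromosome. The dotted line is at 0.4, and the 4 runs above it are those of chromosomes 2, 4 and 13 named in the text.

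Lineage lists differed in how many members passed. Of 7 neural genes tested 2 rose and 1 fell, the Sox1, Ncam1 and Nes given above, and of 13 trophectoderm genes 0 rose and 3 fell by edgeR, which are the 3 keratins given above; 2 trophectoderm genes were higher at an unadjusted p under 0.05 and 0 by DESeq2. Of 12 primitive streak and mesoderm genes 0 rose and 0 fell by edgeR, with 1 higher and 2 lower at an unadjusted p under 0.05 and 1 higher by DESeq2. Bmp4 had a log2 change of 0.77, and T, the mesoderm factor Brachyury, had 698, 597 and 212 normalized counts at P10 and 272, 256 and 257 at P20. Of 16 primitive endoderm genes, Sox7 rose from low values (1.93, 6.94 and 5.78 normalized counts at P10 and 21.01, 26.4 and 26.3 at P20, log2 fold change 2.32 ± 0.44 (SE), adjusted p = 0.00177) and Lrp2, the endocytic receptor megalin, fell (1161, 1401 and 1952 normalized counts at P10 and 535, 683 and 828 at P20, log2 fold change -1.14 ± 0.17 (SE), adjusted p = 0.000217). The Sox7 call was lost without P10 replicate 1 or P20 replicate 2 (1.92 to 2.68 over the libraries left out). Short lists of embryonic, extra-embryonic and apoptosis genes were taken from the study, and how their genes were chosen is not given in the sources used here, so their direction is not taken as independent evidence. Among the 6 embryonic genes Nanog and Nr0b1 rose, and Sall4, Sirt1, Pou5f1 and Sox2 had log2 changes of 0.07, 0.07, 0.00 and 0.26. Among the 6 extra-embryonic genes Sox7 rose and Lrp2 and Dusp4 fell, while Gata6, Col4a1 and Col4a2 had 1.41, -0.36 and -0.24. Among the apoptosis genes, Bad, Bak1, Bid, Casp9 and Tnfrsf1a had log2 changes of 0.27, 0.25, -0.14, 0.06 and 0.12. In the remaining lists, Wnt targets had 1 rise, Cdx1 (54.0, 48.6 and 25.4 normalized counts at P10 and 111, 105 and 149 at P20, log2 fold change 1.48 ± 0.25 (SE), adjusted p = 0.000711), among 14. Basement membrane and collagen genes had 1 rise, Nid1 (log2 fold change 0.77 ± 0.12 (SE), adjusted p = 0.00037), among 17. Interferon and MHC class I genes had 1 rise, Oas1a (0.93), and 2 falls, H2-D1 (-0.56) and Psmb8 (-1.003), among 17. The BMP and Nodal list (16 tested) had 0 of either by edgeR, 4 higher and 5 lower at an unadjusted p under 0.05, and 3 and 2 by DESeq2, with Tdgf1 at 0.27 and Skil at -0.13. The Hox list (14 tested) had 0 of either by edgeR and DESeq2, and 3 lower at an unadjusted p under 0.05, with Hoxc13 at -0.35. Sirtuins had 1 rise (Sirt6, 0.49) among 7, and clustered histones 1 rise (H2bc4, 1.09) among 18. The calls of H2-D1, Psmb8, Sirt6 and H2bc4 were each lost without 1 or more of the 6 libraries.

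Markers of other cells were looked at in the same libraries. Fibroblast or feeder markers summed to 2462 to 2899 normalized counts at P10 and 3769 to 7406 at P20, and Col1a1, the main one, rose (2103, 2016 and 1565 normalized counts at P10 and 2808, 3083 and 5435 at P20, log2 fold change 0.99 ± 0.19 (SE), adjusted p = 0.00199). It lost its call without P10 replicate 3 or P20 replicate 3, the library in which Vim, too, was highest. Of the 12 listed markers 8 were tested, with a median log2 change of 0.71. Of these, 1 rose and 0 fell by edgeR, and 4 were higher and 0 lower at an unadjusted p under 0.05. Fap was at 0 in all 6 libraries, and Dcn, Lum and Prrx1 were too low to test. The markers of blood and endothelium (3 of 9 tested), neurons (5 of 6), parietal and visceral endoderm (5 of 10) and trophoblast (3 of 7) had 0 rises and 0 falls by edgeR, and 2 members in each direction at an unadjusted p under 0.05. Their part in the results above was not tested.

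Some genes named above overlap a neighbour, and whether strand was used in counting is not given, so reads of both may be mixed. Gbx2 overlaps D130058E05Rik, Tbx3 overlaps Tbx3os1, Cyp51 overlaps Akap9, Ddit3 overlaps Mars1, Ccnd3 overlaps Bysl, Mafk overlaps Tmem184a, Ppp1r15a overlaps Tulp2, Tagln overlaps Pcsk7, Vcl overlaps Ap3m1 and Zfp640 overlaps Gm40988 on the opposite strand. Snrpn shares its strand with Snurf and Sox2 with Sox2ot.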

How the data were processed

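RNA was extracted with the RNeasy Plus mini kit and libraries were made with the NEBNext Ultra II Directional kit, per the labels. The authors deposited estimated counts per gene for the 18 libraries in 1 table; 9.98% of the values were not whole and were rounded. The submitters' processing notes name mm10, STAR, Salmon and DESeq2 without versions; the study's methods name STAR and HTSeq; the strand setting is not given in the sources used here. No column was left unused and no replicate pair agreed within sampling noise.

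From these, edgeR 4.0.16 (R 4.3.3) tested genes kept by filterByExpr, with TMM factors and the quasi-likelihood test on all 18 libraries in 6 groups of 3, Benjamini-Hochberg adjusted over 16054 genes. Genes were called at a log2 fold change over 1 and an adjusted p under 0.01, two-sided. Differences between media are interaction contrasts of the same model. Normalized counts are counts over a library's TMM effective size, times the mean of those sizes. On simulated data 95 of 100 genes changed by 1.5 and 100 of 100 changed by 2.5 (log2) were recovered, with 2 false calls. The changed genes were drawn from those with a mean of at least 50 normalized counts, so these rates do not cover less abundant genes. Total counts limit precision through counting error, which the model includes. P-values measure the spread between the cultures of 1 line.

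Named were the 15 largest rises and 15 largest falls with groups that did not overlap and a mean of at least 50, list members with the smallest adjusted p (or the highest means where none passed), the study's long-term culture lists, the most abundant genes of deviating chromosomes, and the 5 smallest adjusted p of each difference between media. A few genes that meet these rules are not reported here. Other list members past the test were added after their values were seen. The comparison and lists were chosen with earlier results of these data known. Alternatives were other scalings (DESeq2 1.42.0 size factors, library totals), filters, thresholds, DESeq2's Wald test, the 2 groups alone, a replicate block and each library left out. Gene positions are from GENCODE M21 (GRCm38); promoters are from RefSeq (GRCm38.p6), with an entry for 11576 of 16054 tested and 189 of 296 called genes.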

Additional observations from a re-analysis of the deposited data

Results flagged for a closer look

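For genes reported from the 15 largest rises, the 15 largest falls and the most significant differences between media (34 genes), the passage change in Serum/LIF was compared with that in EMM and 2i/LIF by the interaction contrast of edgeR, at an adjusted p under 0.01. It differed from EMM for 22 genes and from 2i/LIF for 16. These counts are a description, since the genes were picked as the extremes in Serum/LIF or, for Kif1a, Cldn7, Pim2, Tbx3, Gbx2 and Sfn, for a small adjusted p of this difference. Over all tested genes the same test put EMM above Serum/LIF for 8.28% and below it for 6.43%, and 2i/LIF above it for 9.16% and below it for 10.9%. Differences are the log2 passage change in the other medium minus that in Serum/LIF. All these contrasts share the 6 Serum/LIF libraries. They compare changes and not levels, and levels at P10 differed between the media for genes such as Sema6a and Tbx3, as given above.

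Genes that fell in Serum/LIF were above it in EMM: Sema6a by 5.91, Fndc3c1 by 5.71, Enpp2 by 5.22, Kif1a by 4.92, Galnt3 by 4.67, St6gal2 by 4.49, Cldn7 by 3.94, Fgf5 by 3.90, Pim2 by 3.81, Fosb by 2.67, Fos by 2.40, Atf3 by 2.25, Sfn by 1.57, Jun by 1.43 and Egr1 by 1.24. Thsd7a had a fitted difference of 6.12, but from a mean of 1.06 normalized counts in EMM at P10, so its size depends on the prior count and is not ranked with the others. Of these 16 genes, the largest adjusted p of the difference was that of Atf3 (0.00296). Fos and Fosb still fell in EMM, by less. Genes that rose in Serum/LIF were below it in EMM, with differences of -4.49 for Nkx6-3, -4.39 for Rbfaos, -2.77 for Cd37, -2.69 for Gbx2, -2.56 for Tbx3 and -2.19 for Inhbb.

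In 2i/LIF, Cldn7, Sema6a and Sfn rose, with log2 changes of 2.11, 1.84 and 1.36, and differences from Serum/LIF of 3.78, 3.75 and 2.82. Pim2 fell by less (-0.55, difference 0.93), and Atf3 had a log2 change of -0.03 (adjusted p = 0.952, difference 2.12). The falls of Egr1, Jun and Fos were deeper there, with differences of -6.69, -2.22 and -1.52. For the rises, the differences were -4.41 for Gm12463, -3.96 for Trim52, -2.89 for Stra8, -2.82 for Glcci1, -2.73 for Gbx2, -2.15 for Cd37, -1.86 for Nxf3 and -0.74 for Tbx3. With 3 libraries a group, single libraries were not tested as standing apart.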

How the results depend on the processing

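Called genes in Serum/LIF were 188 higher and 108 lower. They were 335 and 200 with no filter beyond a total count of 1, 101 and 35 with at least 10 counts in every library (fewer genes tested), 507 and 458 without the fold threshold, 399 and 176 at an adjusted p under 0.05, and 287 higher with only the 6 libraries fitted. Leaving out each library gave 107 to 164 higher and 72 to 98 lower. DESeq2's Wald test called 355 in all, 276 of them among the 296, and DESeq2's size factors 290, with 286 shared. The difference from EMM was higher for 812 genes and lower for 537. It was 1329 and 1033 without the fold threshold and 445 higher with at least 10 counts, and ran from 670 to 794 and from 446 to 509 with a library left out. The difference from 2i/LIF was higher for 511 and lower for 985, 1471 and 1745 without the fold threshold, 611 lower with at least 10 counts, and 364 to 699 and 755 to 1197 with a library left out.

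Labels give the same replicate numbers at both passages. Deviations of same-numbered samples had correlations of 0.032, 0.012 and 0.068, and not every sample correlated best with its own number, so the numbers were not taken to pair the samples. With the replicate block, 175 genes were higher and 98 lower (273 in all, 263 of them shared), the difference from EMM was higher for 786 and lower for 527, that from 2i/LIF was higher for 499 and lower for 945, and Pou5f1 stood at -0.00020.

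Among values for named genes, 1520 of 1725 under the alternatives kept direction and side of the threshold, 162 lost the threshold, 30 gained it and 13 changed sign. The sign changes were in 4 genes with values near 0. Pou5f1 was -0.016 with DESeq2's size factors and its Wald test, -0.033 with no filter, -0.0024 with at least 10 counts, and -0.053 to 0.048 with a library left out. Gm47283 was 0.051 with library totals and -0.13 to 0.081 with a library left out, Ddx3y -0.079 to 0.13 and Casp9 -0.0049 to 0.12. The causes were not tested. List medians moved beyond the spread in 14 of 467 cases, and list counts past 1.5 times in 203 of 936.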
